A study of Drosophila melanogaster with 3 samples.

Results

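The genes of matrix metalloproteases and of the basement membrane were examined for binding of Hr4 in Drosophila melanogaster. The 10 members were Mmp1, Mmp2, Timp, Col4a1, vkg, LanA, LanB1, LanB2, trol and SPARC, out of 13945 protein-coding genes on the chromosome arms. Each member's window was its annotated gene span with 5 kb to each side. A window was searched for summits, the single base at which a called peak is highest, of the list of peaks reproducible between replicates. The windows held 19 of the 8693 reproducible peaks. The signal value of a peak is the authors' own, and ranks count from 1 for the strongest peak of a list. The list was made from chromatin immunoprecipitation and sequencing of 3 biological replicates of whole white prepupae, males and females pooled, all of 1 group. The animals came from 1 transgenic line that stably expresses Hr4 with green fluorescent protein (GFP) at its C-terminus, and precipitation used an antibody to GFP, per the labels' description, although the antibody field names Hr4. The labels give an age of 48 day, which is not an age of white prepupae and may be a wrong unit or entry, so the stage is taken from the stage label. Chromatin was sheared by sonication to 200 to 800 bp. Every sample carried the tag and no other stage, genotype or untagged sample was analysed here, so the data hold no contrast between conditions and no test was made. In whole animals, strong binding in few cells and weak binding in many cells cannot be told apart.

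Matrix metalloproteases are secreted or membrane-bound enzymes that cut proteins of the extracellular matrix, and Timp is their secreted inhibitor. The basement membrane is the sheet of matrix under epithelia and around muscle and fat body. It is built from a network of collagen IV, whose chains are encoded by Col4a1 and vkg, and a network of laminin, whose alpha, beta and gamma chains are encoded by LanA, LanB1 and LanB2. The proteoglycan perlecan, encoded by trol, and SPARC, a glycoprotein that binds collagen IV, complete the set. At the onset of metamorphosis, ecdysone drives the dissociation of the larval fat body, for which Mmp1 and Mmp2 are known to be needed. Hr4 is an orphan nuclear receptor induced in the ecdysone response at this stage. Many receptors of this kind bind the motif AGGTCA, and the vertebrate relative of Hr4, GCNF, binds direct repeats of it without a spacer.

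Sequences of 151 bp centred on 6 of the summits are given from the Release 6 genome (dm6), 5′ to 3′, to show the DNA at the summits and the 1 window among the 19 that holds AGGTCA. In the sequence at CG7115, the capitals mark a direct repeat of AGGTCA without a spacer. In the other 5 sequences the capitals mark the longest run of A and T within 50 bp of the summit.
LanB1 downstream flank, promoter of CG7115, chr2L:7821341-7821491, + strand: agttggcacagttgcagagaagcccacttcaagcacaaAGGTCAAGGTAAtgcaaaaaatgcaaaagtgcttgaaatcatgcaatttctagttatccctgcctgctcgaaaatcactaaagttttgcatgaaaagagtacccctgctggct
LanB1 first intron, chr2L:7813124-7813274, + strand: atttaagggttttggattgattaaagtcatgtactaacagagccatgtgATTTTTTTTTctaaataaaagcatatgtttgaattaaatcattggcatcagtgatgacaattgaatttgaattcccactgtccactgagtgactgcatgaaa
Timp, upstream of the start site, chr3R:10213560-10213710, + strand: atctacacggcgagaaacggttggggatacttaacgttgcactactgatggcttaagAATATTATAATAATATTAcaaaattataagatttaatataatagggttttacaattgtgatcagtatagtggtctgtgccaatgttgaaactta
trol, strongest summit in its span, chrX:2533959-2534109, + strand: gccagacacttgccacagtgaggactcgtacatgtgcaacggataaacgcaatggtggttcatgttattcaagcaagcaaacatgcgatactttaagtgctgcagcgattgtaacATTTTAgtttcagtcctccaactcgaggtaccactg
trol, summit beside the innermost start site, chrX:2503540-2503690, + strand: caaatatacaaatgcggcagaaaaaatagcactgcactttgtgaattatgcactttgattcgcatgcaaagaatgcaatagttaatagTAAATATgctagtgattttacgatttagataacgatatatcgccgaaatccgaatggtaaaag
trol, summit beside the middle start site, chrX:2518435-2518585, + strand: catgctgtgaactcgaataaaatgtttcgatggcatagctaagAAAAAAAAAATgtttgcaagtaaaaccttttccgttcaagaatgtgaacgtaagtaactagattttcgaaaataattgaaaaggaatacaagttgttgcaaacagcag
The repeat at CG7115 lay 26 bp from the summit and differed from a perfect repeat of AGGTCA by C11A, where the motif's base comes first and positions are counted from 1 at the 5′ end of the repeat. The repeat was searched for after this sequence had been read, so its presence is a description. The run of 18 bases upstream of Timp ended 1 bp from the summit. In the sequences from LanB1 and trol the longest runs had 10, 6, 7 and 11 bases, in the order printed. Such runs are no trait particular to these summits, since their median was 8 bases over the 19 windows and 10 over all summits.

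Binding was unevenly spread over the 10 genes. A reproducible summit lay in the windows of 6 of 10 members (Mmp2, Timp, LanA, LanB1, trol and SPARC), beside 51.2% of all protein-coding genes. The windows of Mmp1, Col4a1, vkg and LanB2 held none. Summits inside the gene's own span were found in 3 of 10 members (Mmp2, LanB1 and trol), beside 15.6% of all genes, and 10 of the 19 summits lay there. A summit within 1 kb of an isoform's start site was found in 3 of 10 members (Mmp2, Timp and trol), beside 22.7% of all genes. These shares over 10 genes were not tested against the background. The share inside the span was also not set beside genes with spans of like length. Mmp2 and trol have the longest spans of the 10 genes, so this share cannot be read as more frequent binding than in all genes.

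**Figure D1:**
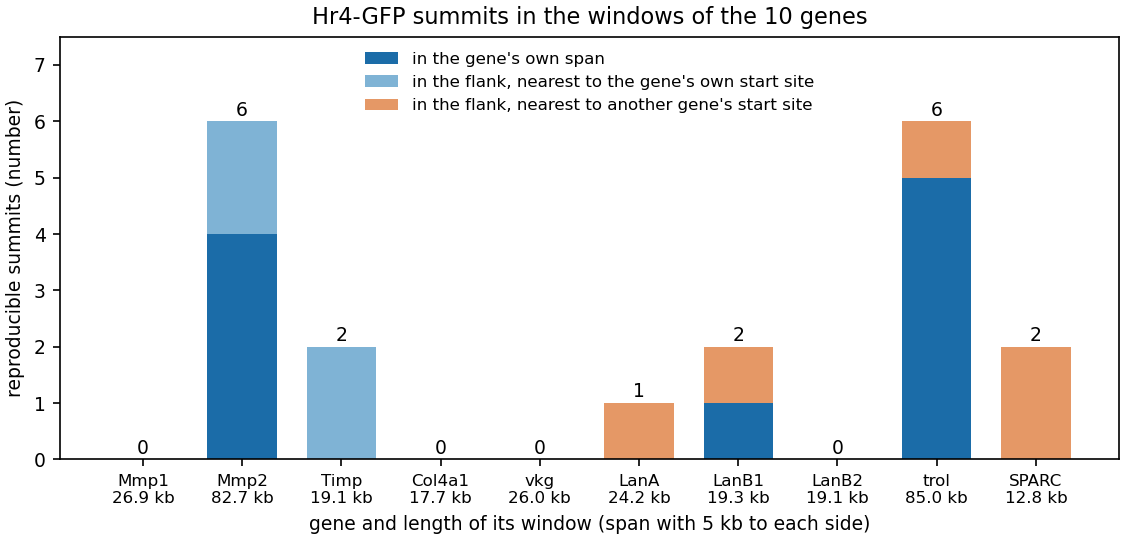
Number of reproducible summits in the window of each of the 10 genes, with the window's length in kb under the gene's name; colours separate summits in the gene's own span from summits in the flank by the gene whose start site is nearest. Mmp2 and trol hold 6 each, 4 genes hold none, and the summits of LanA and SPARC are nearest to other genes.

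Most of the summits lay in the 2 longest windows. Mmp2 and trol, with windows of 82.7 and 85.0 kb, held 12 of the 19 summits, or 0.0716 summits per kb, and the other 8 genes held 7, or 0.0447 per kb. Over all member windows the density was 0.0586 per kb, beside 0.0713 per kb over the windows of all protein-coding genes and 0.0649 per kb over the arms. Among the 71 genes with windows of 75 to 95 kb, which include Mmp2 and trol, 80.3% held a summit and the median was 5. Of these 71 genes, 40 had fewer summits than the 6 of Mmp2 and of trol, and 26 had more. In the class of 20 to 30 kb, LanA held a summit and Mmp1 and vkg did not (1 of 3), beside 73.2% of all genes. In the class of 15 to 20 kb, Timp and LanB1 held one and Col4a1 and LanB2 did not (2 of 4), beside 62.9%. SPARC, the only member of the class of 10 to 15 kb, held 2, in a class where 44.7% of genes held any.

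**Figure D2:**
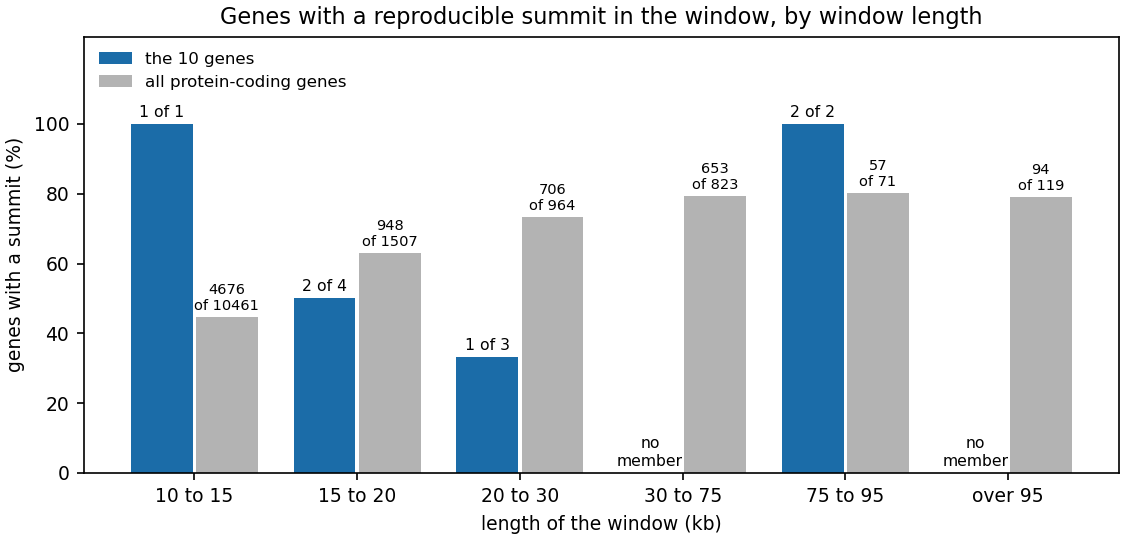
Percentage of genes whose window holds a reproducible summit, by window length in kb, for the 10 genes (blue, left) and all protein-coding genes (grey, right), with the counts above each bar. Among all genes the percentage is lowest in the class of 10 to 15 kb, at 44.7%, and it is 80.3% in the class of 75 to 95 kb; no member falls in the classes of 30 to 75 kb and over 95 kb.

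Of the 2 proteases, Mmp2 held summits and Mmp1 none. Mmp1 (FBgn0035049, chr2R:24671294-24688184 on the minus strand, dm6) had 10 annotated isoforms from 3 start sites and no reproducible summit in its window of 26.9 kb. The nearest summit to any of its start sites lay 58448 bp upstream, near Usp15-31 (rank 2028 of 8693 by signal), and the nearest on the other side lay 47698 bp beyond the gene's end (rank 7480). Mmp1 thus sat in a stretch of 123 kb without a reproducible summit. The relaxed lists, which hold 30000 entries each and include background, had no entry in this window in the pooled list or in replicate 3. A window of 20 to 30 kb had no pooled entry in 7.99% of all genes. Replicate 1 had 3 entries there, at ranks 13638 and 28669 in coding exons of SiaT and at rank 16362 in an intron of Mmp1. Replicate 2 had 1 entry, at rank 24459, 55 bp inside the start site used by 5 isoforms. None of these 4 entries had a counterpart within 250 bp in another replicate.

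Mmp2 (FBgn0033438, membrane-anchored protease, chr2R:9611139-9683858 on the minus strand) had 6 summits, all upstream of the start site at 9658230, which serves 2 of its 3 isoforms. They clustered around and downstream of the start site at 9683858, which serves 1 isoform, with 1505 to 7605 bp between neighbours. The strongest, at 9672857, had a signal value of 425 (rank 1263) and ranked 1357, 1601 and 1026 in replicates 1, 2 and 3. It lay 11001 bp downstream of the upstream start site, in the first intron of that isoform. The next, at 9686124, lay 2266 bp upstream of the start site in intergenic sequence, with a signal of 322 (rank 1979) and replicate ranks of 2492, 1963 and 1990. The intronic summit at 9680462, 3396 bp downstream, had a signal of 303 (rank 2168) and replicate ranks of 1953, 2174 and 2520. These 3 summits ranked within the top 4346, the stronger 50% of the reproducible list, in every replicate.

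The only summit of the 10 genes at a member's own promoter, taken as 250 bp to each side of a start site, was at 9684066, 208 bp upstream of the upstream start site of Mmp2. Its signal was 179 (rank 4265), and its ranks in replicates 1, 2 and 3 were 4777, 4192 and 5611. Its window of 101 bp held a run of 24 bases of A and T, the longest among the 19 windows. The remaining Mmp2 summits were weak. The summit at 9681967 had a signal of 89.9 (rank 8508), close to the lowest value of the list (88.0), and ranked 6579, 13304 and 8268 in the replicates. The summit at 9669990 had a signal of 113 (rank 6868), with replicate ranks of 7596, 7543 and 6677. It lay 11760 bp upstream of the start site at 9658230, in the first intron of the same single isoform as the other 3 intronic summits. No summit lay in the part of the span transcribed by all 3 isoforms.

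Timp (FBgn0025879, chr3R:10203875-10213007 on the minus strand) is transcribed from 1 start site and lies within Syn, the synapsin gene, on the opposite strand, and both of its summits were intronic in Syn. The summit at 10213635, 628 bp upstream of the start site of Timp, had a signal of 345 (rank 1795) and replicate ranks of 1815, 1724 and 2192. Its window had the lowest GC content of the 19, 23.8%. The other, at 10203743, lay 132 bp beyond the 3′ end of Timp with a signal of 92.1 (rank 8329) and replicate ranks of 7261, 9413 and 8783. For both summits the start site of Timp was the nearest of any protein-coding gene. Inside the span of Timp, a pooled entry below the reproducible threshold lay 6296 bp downstream of the start site, at rank 9189. Its counterparts in replicates 1, 2 and 3 had ranks 14243, 6718 and 10584.

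**Figure D3:**
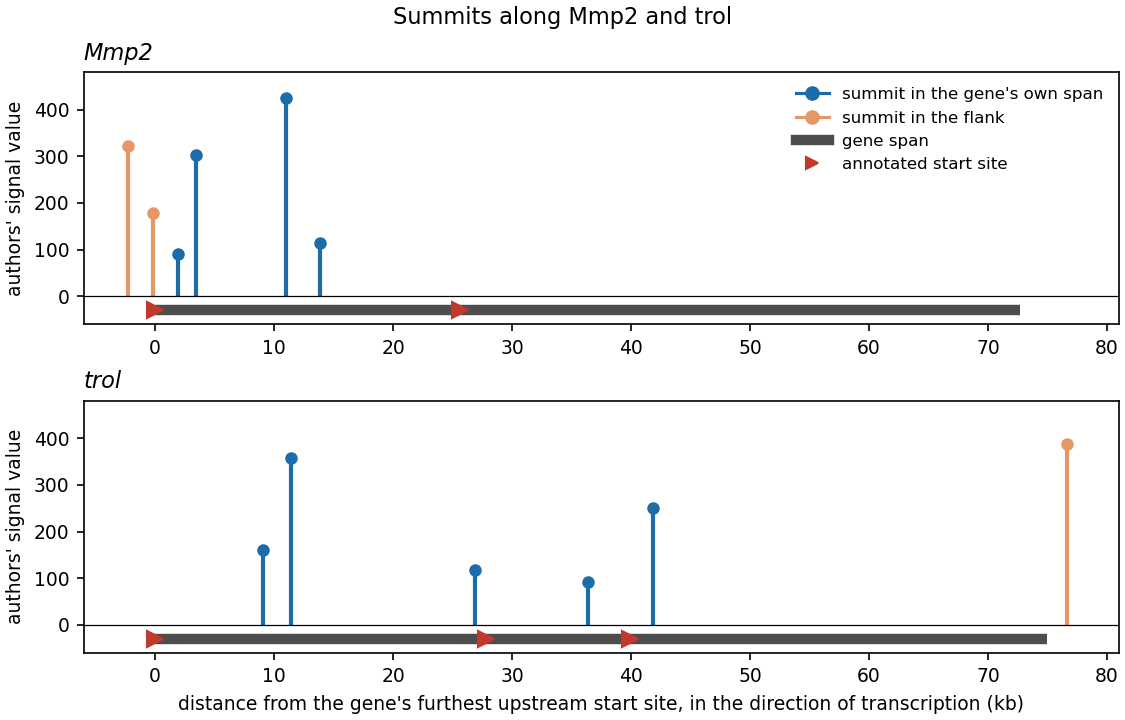
Signal value of the authors (vertical axis) of each reproducible summit along Mmp2 (top) and trol (bottom), against the distance in kb from the furthest upstream start site in the direction of transcription; grey bars are gene spans and triangles are start sites. The summits of Mmp2 lie upstream of its inner start site, while those of trol lie inside the span from 9073 bp on, apart from 1 in the flank past the 3′ end.

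The collagen IV genes had no reproducible summit. Col4a1 (FBgn0000299, chr2L:5029609-5037279, plus strand) and vkg (FBgn0016075, chr2L:5012144-5028191, minus strand) lie head to head, and their windows share 8.58 kb. They sat in a stretch of 38.1 kb between summits at 5005166, near Rtnl1 (rank 807), and 5043221, near CG33995 (rank 6984). The nearest summit lay 13605 bp from a start site of Col4a1 and 15030 bp from one of vkg. The pooled relaxed list had 4 entries in the window of Col4a1 and 6 in that of vkg, all below the reproducible threshold. The strongest, at 5024958 in an intron of vkg, had rank 13685, with counterparts at ranks 21139 and 13749 in replicates 2 and 3. In replicate 1 the only entry within 250 bp was at 5025204 (rank 12541). That entry lay nearer to another pooled entry, at 5025175 (rank 17671). The entry nearest a start site, at 5028357 and 166 bp upstream of vkg, had rank 21207.

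Stronger entries near collagen IV came from replicate 1. The top 8693 entries of this replicate included 2 in the window of vkg, at 5010953 (rank 2892, 31 bp inside the start site of SelT) and 5007522 (rank 6710, near Rtnl1). Neither had an entry within 250 bp in replicate 2, in replicate 3 or in the pooled list. Another top entry, at 5042200 (rank 6833) in the window of Col4a1, was matched in all relaxed lists but not in the reproducible list. Counted from replicate 1 alone, Col4a1 would have 1 summit and vkg 2, against 0 for each from replicate 2 or 3. Among all top entries of replicate 1, 2.11% had neither a reproducible summit nor an entry of another replicate.

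The laminin chains differed from each other. LanB2 (FBgn0267348, gamma chain, chr3L:9614914-9623980, plus strand) lay in a stretch of 108 kb without a reproducible summit, 44790 bp from the nearest summit on 1 side (rank 6420) and 54092 bp on the other (rank 4651, near fry). Its window of 19.1 kb had no entry in the pooled relaxed list, beside 19.6% of genes with windows of 15 to 20 kb. Of the replicates, replicate 3 had 1 entry, at rank 27485 and 7 bp upstream of the start site. LanA (FBgn0002526, alpha chain, chr3L:6203831-6218022, minus strand) had 1 summit, at 6220417, with a signal of 211 (rank 3501) and ranks of 2771, 5683 and 3012 in replicates 1, 2 and 3. This summit lay 161 bp upstream of CG33946 and 2395 bp upstream of LanA.

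Nearer to LanA the entries below the reproducible threshold differed between replicates. The pooled list had an entry 791 bp upstream of the start site at rank 10490. It had a counterpart at rank 8085 in replicate 2 and at rank 18343 in replicate 3 and none in replicate 1. Replicate 1 had an entry at rank 6706, 655 bp downstream of the start site, which the pooled list and replicate 2 lacked. Replicate 3 had an entry within 250 bp of it, 442 bp downstream of the start site, at rank 10354. At that same position replicate 1 had a separate, weaker entry, at rank 28528. A weaker pooled entry 1032 bp upstream, at rank 14153, had a counterpart in each replicate. LanB1 (FBgn0261800, beta chain, chr2L:7811438-7820771, plus strand) had a weak summit at 7813199, with a signal of 104 (rank 7447) and replicate ranks of 6408, 9873 and 5897. It lay in the first intron of 1 of 2 isoforms, 1155 bp upstream of the inner start site. The stronger summit in its window, at 7821416, had a signal of 204 (rank 3659) and replicate ranks of 2973, 5827 and 3873. That summit lay past the end of LanB1, within the span of CG7115 and 119 bp upstream of that gene's nearest start site. Below the reproducible threshold, a pooled entry lay 187 bp downstream of the inner start site of LanB1, at rank 11318. Its counterparts in replicates 1, 2 and 3 had ranks 10159, 13252 and 21169.

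The perlecan gene trol (FBgn0284408, chrX:2470460-2545427, minus strand) had 25 annotated isoforms, of which 23 start at 2545427. Its 5 summits in the span were all intronic, and none lay within 9 kb of the main start site. The strongest, at 2534034, lay 11393 bp downstream of that site in intron 2 of the 23 isoforms, with a signal of 357 (rank 1693). It ranked 2357, 1944 and 1215 in replicates 1, 2 and 3. In the same intron, the summit at 2536354 lay 9073 bp downstream, with a signal of 161 (rank 4787) and replicate ranks of 4306, 4431 and 5617. The summit at 2518510 lay 863 bp upstream of the start site at 2517647, which serves 1 isoform, with a signal of 118 (rank 6568) and replicate ranks of 7452, 5651 and 9668. Below the reproducible threshold, a pooled entry lay 1496 bp upstream of the main start site, at rank 9443. Its counterparts in replicates 1, 2 and 3 had ranks 13481, 12232 and 8705. Another lay 214 bp upstream of the start site at 2517647, at rank 9456, with counterparts at ranks 8830, 17025 and 7402.

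Further downstream in trol, the summit at 2509002 lay 3452 bp upstream of the innermost start site at 2505550, which serves 1 isoform. Its signal was 91.5 (rank 8381), and its ranks in replicates 1, 2 and 3 were 8934, 8902 and 9583, all past the length of the reproducible list. The summit at 2503615 lay 1935 bp downstream of the innermost start site, in an intron of all 25 isoforms, with a signal of 249 (rank 2882) and replicate ranks of 3776, 2881 and 2523. From there the gene held no further summit. The next, 34848 bp away at 2468767, lay past the 3′ end of trol in an intron of boi, a receptor of Hedgehog signalling. It was the strongest in the window, with a signal of 388 (rank 1477) and replicate ranks of 1503, 2003 and 1344. All 6 summits in the trol window were matched in replicate 1, beside 1288 of 1561 reproducible summits on the X chromosome (82.5%).

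SPARC (FBgn0026562, chr3R:26869238-26871995, minus strand) is the shortest member, and both summits in its window lay at the promoters of other genes. The summit at 26866725 was the strongest of all 19, with a signal of 455 (rank 1129) and ranks of 893, 1204 and 1529 in replicates 1, 2 and 3. It lay 82 bp inside the nearest start site of ball, a histone kinase gene, and upstream of another start site of ball. A start site of His2Av was also within 250 bp. The nearer start site of SPARC was 3842 bp away. The summit at 26875839 lay 13 bp upstream of ms(3)K81, a telomere-capping gene of the male germ line, with a signal of 330.3 (rank 1911) and replicate ranks of 2222, 1898 and 2178. It lay 3844 bp upstream of SPARC. At SPARC itself the pooled relaxed list had an entry 217 bp upstream of the start site, at rank 20564, with a counterpart in replicate 3 (rank 17140) and none in replicates 1 and 2.

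**Figure D4:**
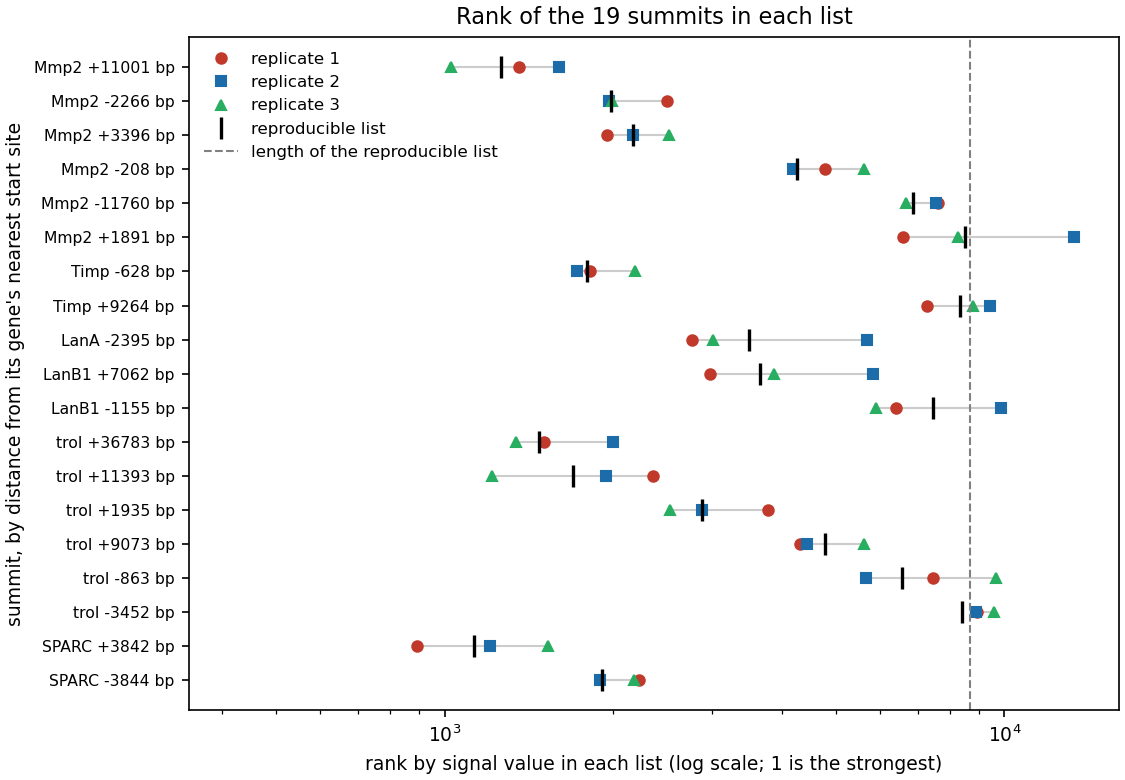
Rank by signal value, on a log scale where 1 is the strongest, of the 19 summits in the reproducible list (black bar) and of their counterparts in replicates 1, 2 and 3; each row is named by the gene and the distance in bp from its nearest start site, negative upstream. All 19 summits have a counterpart in each replicate, and 14 keep it within the top 8693 of every replicate, a count with no share over all summits beside it.

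By position, 13 of the 19 summits (68.4%) were intronic, beside 54.4% of all reproducible summits, and 5 (26.3%) lay at promoters, beside 19.9%. Of these 5, 1 was at a member's own start site (Mmp2). The other 4 were at start sites of other genes, nearest to those of CG33946, CG7115, ball and ms(3)K81. The remaining summit was intergenic, beside 21.8% of all summits, and none lay in a coding exon or an untranslated region. For 5 of the 19 summits the nearest start site belonged to another gene, namely boi or one of these 4.

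The summits in the windows of the 10 genes were of middling strength. Their median rank was 3501, beside 4350 for all summits, and their median signal was 211, beside 177. They ranged from 89.9 to 455, beside a range of 88.0 to 3773 for the whole list. The median rank of their counterparts was 2973, 4192 and 3012 in replicates 1, 2 and 3. Of the 19 summits, none was among the strongest 1000 of the 8693 peaks, 8 were among the strongest 2500, and 12 were in the stronger 50%. Another 3 of the 19 were among the weakest 500 of the 8693 ranks, and none of these counts was tested.

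All 19 summits had an entry within 250 bp in every replicate, beside 90.5% of all reproducible summits. Of all summits, 91.7% had a counterpart in replicate 1, against 99.1% for replicate 2 and 99.5% for replicate 3. The reproducible list was itself derived from these lists, so a match is partly built in. The positions differed by at most 83 bp, with 54 of the 57 offsets at 50 bp or less and a median of 19 bp, beside 18 bp for all summits. A counterpart within the top 8693 entries of replicate 1 was found for 18 summits, of replicate 2 for 15 and of replicate 3 for 16. For 14 summits it was found in all of them. No share over all reproducible summits stands beside these counts within the top 8693, so they cannot be called high or low. The largest spread was at LanA, where ranks differed by a factor of 2.05 between replicates 1 and 2, and at the weakest Mmp2 summit, where they differed by 2.02.

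Read the other way, replicate 1 had 22 top entries in the member windows, of which 4 had no reproducible summit within 250 bp, beside 16.6% of its top entries in the genome. In replicate 2 these were 4 of 19, beside 12.2%, and in replicate 3 they were 3 of 19, beside 11.8%.

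The windows of 101 bp around the summits were A/T-rich, like those of the whole list. Their GC content was 32.4% ± 4.82 (SD, n = 19 summits), beside 31.7% ± 7.59 for 8687 summits, and ranged from 23.8 to 40.6%. The longest run of A and T within them ranged from 6 to 24 bases. On both strands, AGGTCA was found in 1 of 19 windows, beside 1.8% of all windows, and the extended form AAGGTCA in 1, beside 0.679%. Both were the same match at CG7115, which also holds the direct repeat with at most 1 mismatch, found in 0.046% of all windows (4 of 8687). The AP-1 motif TGANTCA, through which JNK signalling acts on Mmp1 in other settings, was in 0 of 19 windows, beside 2.71%. Mmp1 had no summit, so no sequence at Mmp1 was searched and the count does not bear on it. GAGAG, a motif of GAGA factor, was in 0 of 19, beside 8.38%. At these background shares, 0 or 1 of 19 says nothing about the factors that use these motifs.

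Beside the 6 of 10 members with a summit, 31 of 37 other genes of the matrix, in 6 lists by role, held one in the window (83.8%), beside 51.2% of all genes and 62.9% of genes with windows of 15 to 20 kb. In their own span 19 of 37 held one, beside 15.6% of all genes, and 11 of 37 within 1 kb of a start site, beside 22.7%. The median window was 21.8 kb for the members, 19.7 kb for the other matrix genes and 12.2 kb for all genes. Lists were not matched to all genes by window length, and the difference between members and other matrix genes was not tested. Among other basement membrane proteins, 6 of 7 held a summit. The strongest were those of Mp, encoding the Multiplexin collagen (406, rank 1352, 1704 bp upstream of its start site), and of wb, encoding the other laminin alpha chain (363, rank 1653), 17833 bp inside its gene and nearer to the start site of ms(2)34Fe. Of the heparan sulphate proteoglycans all 3 held summits, led by Sdc, the syndecan gene (578, rank 745), and dlp, a glypican gene (528, rank 870), both intronic.

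Of 5 genes that modify or secrete collagen IV, 3 held a summit. The strongest belonged to the window of Tango1, encoding a protein of collagen export (1274, rank 106), but the nearest start site was that of CG31635. The next was in the window of PH4alphaEFB, a prolyl hydroxylase gene (187, rank 4041), with its nearest start site at CDase and no counterpart in replicate 1. Of 9 matrix receptors 7 held one, with the strongest intronic in mew, an integrin alpha subunit gene (709, rank 484), and in Dg, the dystroglycan gene (454, rank 1137). Of 6 linkers of integrin adhesion 5 held one. The summit of stck, encoding the PINCH adaptor, lay 1800 bp upstream of its start site (962, rank 236), and that in the window of Fit1, a kindlin gene, was nearest to Ack (477, rank 1041).

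All 7 other protease genes, a list that includes the protease regulator Reck, held a summit. In the window of Kul, an ADAM protease gene, the summit (1489, rank 72) lay at the promoter of CIA30, 11026 bp from the start site of Kul. In that of AdamTS-B it (891, rank 288) was nearest to CG3149. Of the 12 named matrix genes, 6 (wb, Tango1, PH4alphaEFB, Fit1, Kul and AdamTS-B) had their strongest summit nearest to the start site of another gene.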

How the data were processed

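Hr4-GFP white prepupae were precipitated in 3 biological replicates with an antibody to GFP, per the labels' description (the antibody field reads Hr4), with group and replicate numbers from the labels. Per the deposited text files, the authors made a relaxed list of peaks and background for each replicate against a control, one for the pooled replicates, and an optimal list by the irreproducible discovery rate, here called reproducible. Values are the authors' peak signal in each deposited list. Since every list has its own scale, entries were compared by rank within a list. The peak caller, aligner and threshold were not given in the sources used here. Read depth is unknown, and with 30000 entries in each relaxed list the lengths of the lists say nothing about it. Lists in build dm3 were not used.

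Summits on the arms (8687 of 8693) were placed on the Release 6 genome sequence from RefSeq with the Ensembl release 115 annotation. Positions are 1-based. A summit was classed as promoter (within 250 bp of a start site), untranslated region, coding exon, non-coding exon, intron or intergenic sequence, in that order. Distances use the start sites of protein-coding genes. Summits within 250 bp were taken as the same, and the top 8693 entries of each relaxed list were also used. Motifs were searched within 50 bp of each summit. Scripts used Python 3.11.15, numpy 2.4.6 and matplotlib 3.10.9, and were tested on simulated data. The members, lists of matrix genes and motifs were chosen with earlier results of these data known. The text names the 10 members, the genes nearer to a summit than the member itself, hosts and neighbours, and, from each of 6 lists, the 2 genes whose strongest summit ranked highest. Other matrix genes named in the closing section, and Reck, were chosen after their values were seen. With 1 group and a list made from pooled reads, counts are set beside those of all genes or all summits, with no test. The 39 other settings tried changed the flank, the match distance, promoter and start site distances, the motif window, the strength asked and the replicate used.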

Additional observations from a re-analysis of the deposited data

How the results depend on the processing

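Of 39 alternative settings of the main counts, 9 moved the value and 30 did not, but some of the 30 could not have moved it. To be called moved, a count had to change by more than 1.5 times, or a median or mean by more than 1 SD between replicates. Within that bound, flanks of 2 and 10 kb gave 15 and 27 summits in 4 and 8 members, against 19 in 6, and a start site distance of 2 kb gave 4 members, and the stronger 50% of the list 2, against 3. Without a flank the windows held 10 summits in 3 members, and 19 of the 37 other matrix genes held one. The stronger 50% of the list left 12 summits. A start site distance of 500 bp left 1 member with a summit, and 5 kb gave 6. Promoters of 100 bp to each side held 3 summits. With 100 bp to each side of the summit, AGGTCA was found in 2 windows and the mean GC content was 36.6%. Leaving out each replicate in turn, all 19 summits stayed matched in the remaining ones, which follows from their match in all 3. A required match in all 3 replicates and a match distance of 500 bp could not move a value for the same reason. TGACTCA alone could not either, since TGANTCA was in 0 windows. The pooled list repeated the median rank of the reproducible list, 3501. These settings say nothing about how stable the counts are. Taken from replicate 1 alone, 8 members had a summit, and from replicate 2 or 3 alone 6. Mmp1 and LanB2 also had 0 with 10 kb to each side and from each replicate alone. The other settings tried for them could only remove summits, so their 0 was fixed in advance. At 10 kb to each side, Col4a1 had 3 and vkg 2. The causes were not tested. No paired analysis was possible because all samples belong to 1 group. Unknown depth limits what an absent summit means: below threshold is not unbound.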

Other observations

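Reck, encoding a membrane-anchored regulator of matrix metalloproteases, had 9 summits in a window of 22.8 kb, 8 of them in its span. Over all genes with windows of 20 to 30 kb the median was 2. Reck was chosen after its values were seen. Its strongest summit lay 91 bp upstream of its start site, with a signal of 692 (rank 513), and ranked 1248, 233 and 610 in replicates 1, 2 and 3. Among the matrix receptors and proteoglycans, also chosen after their values were seen, mew held 11 summits and dally and dlp 10 each. Over all genes with windows of 30 to 75 kb, the class of these 3, the median was 3. The integrin beta subunit gene mys, chosen in the same way, had its strongest summit at rank 2595, nearest to fs(1)h, with counterparts at ranks 3959 and 2037 in replicates 2 and 3 and none in replicate 1. No summit lay in the windows of 6 matrix genes, Tig, Loxl1, Loxl2, Itgbn, ItgaPS4 and parvin.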
